A study of Mus musculus with 6 samples.

Results

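The bitter taste receptor cluster on mouse chromosome 6 was described in liver DNA of offspring whose mothers (dams) had received a chromium-restricted or a control diet. Its members were the array probes whose start lies on chromosome 6 between 132500000 and 133100000 of mouse genome build mm9. That window held 165 of 174638 probes, which form 22 of 21987 regions, a region being a run of at least 3 probes with starts at most 1000 bp apart. The window was chosen by a measured value: region 14, counted along the chromosome, had 1 of the larger differences between the diet groups on the array. Differences between these groups in the window are therefore given as a description, and no p is given for a single region.

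Methylated DNA had been pulled down with an antibody (methylated DNA immunoprecipitation, MeDIP) and labelled with Cy5, and input DNA had been labelled with Cy3, on 1 two-colour array per sample. The groups were offspring of dams on the chromium-restricted diet (3 arrays) and offspring of control-diet dams (3 arrays), all at 32 weeks of age. The labels give the tissue as liver, while the extraction text names fat. Strain, sex, litter and the chromium content of the diets are not given in the sources used here, so a p here covers no more than the spread among the 6 arrays. Whole tissue was used, so a change in the mix of cells and a change within a cell type cannot be told apart. An array of DNA carries no marker expression against which the tissue label could be checked.

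Bitter taste receptors (Tas2r genes) are G protein-coupled receptors, each encoded largely by 1 coding exon, that detect bitter compounds. In taste cells they signal through the G protein gustducin, phospholipase C beta, the release of calcium from internal stores and the channel Trpm5, and they also occur in chemosensory cells of the airways and the gut. The genes have multiplied in tandem in rodents and lie beside genes of the proline-rich proteins of saliva, such as Prh1 and Prp2, which are made in salivary glands. MeDIP reads methylated cytosine, which in mammals lies mostly at CpG dinucleotides, so the number of CpGs in a stretch of DNA bounds how much of it the antibody can bind.

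In the order of genes on the RefSeq assembly GRCm38.p6, 28 annotated genes run from Prh1 to Tas2r140. Of these, 18 are protein-coding Tas2r genes and 4 are Tas2r pseudogenes, and the other 6 include Prh1, Prp2 and A630073D07Rik. The array is placed on mm9, coordinates were not converted between builds, and the files name no gene for a probe, so no region is paired with a gene here. Stretches from 250 bases before to 50 bases after the annotated gene start are called promoters here. They were matched by symbol for 14 of the 18 coding Tas2r genes. Whether an annotated start is a start of transcription was not checked. These 14 held a median of 1 CpG per 300 bases and at most 3, against a median of 7 over 32851 mouse promoters. None of the 14 had more than 3 CpGs, while 31.4% of all promoters had 3 or fewer. A promoter with no CpG at all was found for 5 of the 14 (Tas2r120, Tas2r123, Tas2r110, Tas2r113 and Tas2r140), against 5.43% of all promoters. The share of G and C was 28.7% to 37.0% in the 14, with a median of 32.8%, against a median of 52.7% over all promoters. The 17 matched Tas2r genes outside this run had a median of 2 CpGs and 39.7% G and C.

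**Figure D1:**
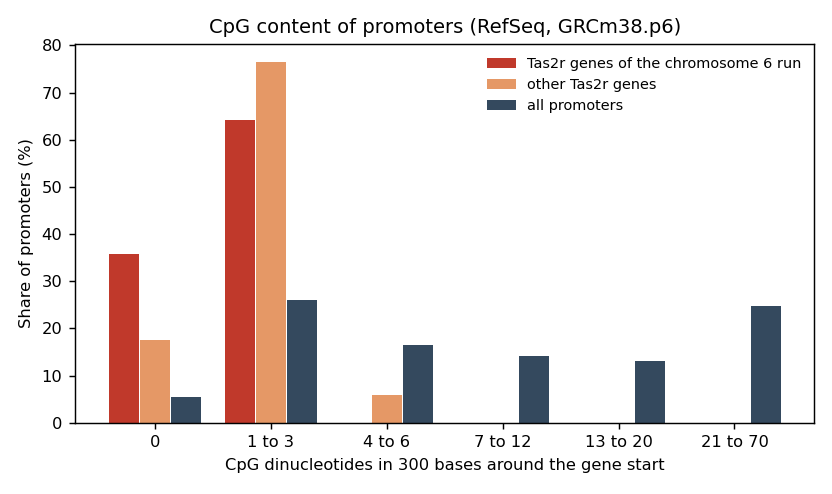
Share of promoters (y axis, percent) by the number of CpG dinucleotides in 300 bases around the gene start (x axis), for 14 Tas2r genes of the chromosome 6 run, 17 other Tas2r genes and all 32851 promoters. All 14 promoters of the run lie in the 2 lowest classes, whereas 24.8% of all promoters hold 21 or more CpGs.

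The following promoters are shown to let the sparseness be seen, 5′ to 3′ on the gene's strand, with each CpG in capitals. Tas2r125 and Tas2r122 have the most CpGs of the 14 Tas2r promoters (3 each), Tas2r113 has none, Prh1 is the proline-rich salivary gene at the start of the run (none), and Smim10l1, a gene on the other flank of the receptors, has 11. For Tas2r125, Tas2r122, Tas2r113 and Prh1 the last 50 bases begin with atg, the triplet of a start codon. These may thus hold coding sequence and lack the promoter itself. The stretches shown are from RefSeq on GRCm38.p6, and their positions cannot be set against the mm9 positions of the probes. They are chr6:132909401-132909700 (+ strand) for Tas2r125, chr6:132711879-132712178 (- strand) for Tas2r122, chr6:132892761-132893060 (+ strand) for Tas2r113, chr6:132569592-132569891 (+ strand) for Prh1 and chr6:133104989-133105288 (+ strand) for Smim10l1.
Tas2r125: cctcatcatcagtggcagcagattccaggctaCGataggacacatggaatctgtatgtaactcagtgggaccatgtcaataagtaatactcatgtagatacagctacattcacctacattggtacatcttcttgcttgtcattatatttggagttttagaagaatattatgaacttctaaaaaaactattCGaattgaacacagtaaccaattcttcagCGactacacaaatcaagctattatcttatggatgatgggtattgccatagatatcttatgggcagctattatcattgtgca
Tas2r122: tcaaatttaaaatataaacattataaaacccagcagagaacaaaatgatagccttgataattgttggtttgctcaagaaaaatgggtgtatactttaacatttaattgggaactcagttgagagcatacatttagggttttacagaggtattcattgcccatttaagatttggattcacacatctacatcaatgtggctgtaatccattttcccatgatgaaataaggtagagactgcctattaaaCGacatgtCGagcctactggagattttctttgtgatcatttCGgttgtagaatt
Tas2r113: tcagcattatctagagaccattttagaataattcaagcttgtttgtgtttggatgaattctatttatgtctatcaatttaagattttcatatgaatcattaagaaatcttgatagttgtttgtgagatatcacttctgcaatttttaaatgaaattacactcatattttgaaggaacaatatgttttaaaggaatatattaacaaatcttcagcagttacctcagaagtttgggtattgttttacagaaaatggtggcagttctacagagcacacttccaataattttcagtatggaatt
Prh1: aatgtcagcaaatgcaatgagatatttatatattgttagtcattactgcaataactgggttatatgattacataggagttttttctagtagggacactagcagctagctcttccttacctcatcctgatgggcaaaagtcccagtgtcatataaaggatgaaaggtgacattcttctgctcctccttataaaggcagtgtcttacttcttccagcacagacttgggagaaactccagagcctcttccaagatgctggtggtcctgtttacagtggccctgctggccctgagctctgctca
Smim10l1: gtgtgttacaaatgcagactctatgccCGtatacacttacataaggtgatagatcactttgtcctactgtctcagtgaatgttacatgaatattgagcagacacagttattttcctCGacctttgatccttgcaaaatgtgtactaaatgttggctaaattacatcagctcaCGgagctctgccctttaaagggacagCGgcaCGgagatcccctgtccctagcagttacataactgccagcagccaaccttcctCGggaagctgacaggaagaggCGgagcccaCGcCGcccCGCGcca

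Both groups were present in each of 3 scans, 1 array of each per scan, and same-numbered arrays share a scan. Slide position was 2 for every chromium-restricted array and 4 for every control array, so position and group cannot be told apart. Values of a group are listed in the order of its arrays 1, 2 and 3. The median background-subtracted input signal over all probes was 46.1 to 83.9 scanner units on the chromium-restricted arrays and 38.1 to 98.4 on the control arrays. No spot of the window carried an outlier flag or was saturated. Over the whole array, no group difference passed limma with Benjamini-Hochberg adjustment at 0.05, neither among regions (0 of 21987, 0%) nor among probes (0 of 174278, 0%).

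The cluster was dim on every array. The scanner software marked the input signal as well above background at 65, 94 and 61 of the 165 probes in the chromium-restricted group, against 105, 56 and 73 for control arrays. The groups overlapped, and the counts followed the brightness of each array's input over all probes, which was highest on control array 1 and lowest on control array 2. The immunoprecipitated signal was well above background at 69, 70 and 72 probes in the chromium-restricted group, against 72, 72 and 73 for control arrays. A probe is called fully measured here where this mark was given to both its channels on each of the 6 arrays. That held for 46 of the 165 probes (27.9%), against 67.4% of all probes and 64.7% in the rest of chromosome 6. The olfactory receptor window on chromosome 2 (85000000 to 90500000) was similar to the taste receptor window in this, at 29.1% of 1702 probes, and the window of natural killer lectin receptors on chromosome 6 (128000000 to 131500000) lay between, at 51.6% of 502 probes. At 90 probes of the cluster (54.5%) the immunoprecipitated signal was not well above background on any array, against 20.9% of all probes.

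Probe length moved with this. The array's probes are 45 to 60 bases long, and 101 of the 165 (61.2%) had the full 60 bases, against 13.2% of all probes and 54.3% in the olfactory receptor window. Of those 101 probes of the cluster, 6.93% were fully measured, against 72.2% of its 18 probes of 45 to 49 bases. Over all probes the same shares were 14.9% and 84.0%. Across the cluster's 165 probes, log2 ratio and probe length had Pearson r = -0.31 and Spearman rho = -0.30, given as a description, since the probes share the same 6 arrays. The part of probe length in these values was not tested.

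Values are log2 ratios of immunoprecipitated over input signal, centred on the median probe of each array, so that 0 is the array's median and a higher value is taken as more methylated DNA. The 22 regions had a median of -0.13 over the 6 arrays, against -0.11 for all regions, -0.28 for the natural killer receptor window and -0.30 for the olfactory receptor window. They ran from -0.77 to 0.59, and 15 of 22 (68.2%) lay below 0, against 59.1% of all regions. The mean over the 22 regions was -0.031, -0.18 and -0.11 in the chromium-restricted group, against -0.13, -0.050 and 0.014 for control arrays. The groups overlapped, with chromium-restricted arrays at -0.11 ± 0.076 and control arrays at -0.056 ± 0.073 (mean ± SD, n = 3 each). The difference, chromium-restricted minus control, was -0.053 overall and 0.10, -0.13 and -0.13 within scans 1, 2 and 3. It was -0.036 without the region that drew attention to the window. When only fully measured probes were kept, arrays were centred on the median of such probes. The 6 regions that still had at least 3 probes then gave a mean level of 0.33 and a difference of 0.039. That level has another zero than the values above, on whose scale such probes of the whole array had a median of 0.22. Over all 22 regions the difference was -0.017 with the median over each region's probes and -0.035 with normexp background correction. The mean level over the 22 regions depended on processing. It was -0.082 here, -0.17 with normexp and -0.73 in the authors' deposited table after centring.

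The lowest value of the cluster belonged to region 21, which spans 133005312 to 133006954. Its mean log2 ratio was -0.74, -0.90 and -0.86 in the chromium-restricted group, against -0.91, -0.53 and -0.69 in the control group. All 6 values were low, with the mean over arrays at the 11.3rd percentile of all regions, and the groups overlapped. Region 4, from 132605748 to 132607434, averaged -0.65 ± 0.12 in the chromium-restricted group, against -0.64 ± 0.19 for control arrays (SD, n = 3 each). Region 7, from 132687606 to 132689103, averaged -0.44 ± 0.20 in the chromium-restricted group, against -0.35 ± 0.16 for control arrays, with the same n. In region 21 the immunoprecipitated signal was well above background on all arrays at 1 of 8 probes. The same held at 2 of 8 probes in region 4 and at 2 of 7 in region 7.

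The highest value belonged to region 5, from 132650661 to 132652184. Its mean log2 ratio was 0.35, 0.40 and 0.84 in the chromium-restricted group, against 0.40, 0.87 and 0.67 in the control group. It lay at the 94.7th percentile of all regions, with chromium-restricted array 3 and control array 2, the arrays with the dimmest inputs, highest in their groups. Region 12, from 132795866 to 132797602, averaged 0.46 ± 0.12 in the chromium-restricted group, against 0.57 ± 0.21 for control arrays (SD, n = 3 each). Region 19, from 132930547 to 132932017, averaged 0.41 ± 0.17 in the chromium-restricted group, against 0.57 ± 0.12 for control arrays (SD, n = 3 each). Fully measured probes were 1 of 8 in region 5, 2 of 8 in region 12 and 2 of 7 in region 19. The remaining 16 regions lay between -0.35 and 0.35. With normexp background correction the levels of regions 5, 12 and 19 were 0.038, -0.050 and 0.081, and in the authors' deposited table they were -0.22, -0.59 and -0.088 after centring. Region 12 thus lay below the array's median with normexp, and all 3 lay below it in the authors' deposited table. The low regions 21, 4 and 7 stayed below it, at -0.48, -0.39 and -0.37 with normexp and at -1.26, -1.10 and -0.98 in the authors' deposited table.

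**Figure D2:**
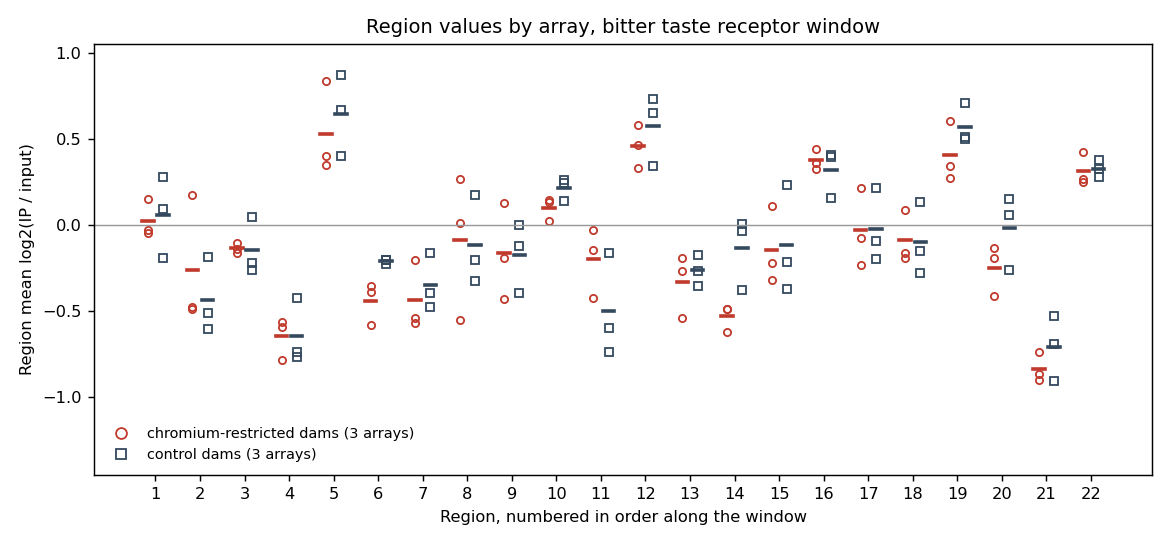
Mean log2 ratio of immunoprecipitated over input signal (y axis) for the 22 regions of the window in order along the chromosome (x axis). Points are arrays, with offspring of chromium-restricted dams left of offspring of control dams, and bars are the means of 3 arrays. The groups overlap in all but regions 6 and 14.

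Neighbouring regions could lie far apart in level. Region 4 (-0.65) is followed by region 5 (0.59), and region 20 (-0.13) by region 21 (-0.77) and region 22 (0.32). At the left edge of the window the first region inside, from 132518560, had a level of 0.042, and the nearest region outside, from 132313788, had -1.56. At the right edge the last region inside, from 133054052, had 0.32, and the nearest outside, from 133240934, had -0.26. The range of probe means within a region had a median of 2.92 and exceeded 2 in 17 of 22 regions. Region levels are averages over probes, so this range is not set against the spread between regions.

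Bright probes were not all equally steady between arrays. The brightest probe, from 132988184 to 132988232 in region 20, had log2 ratios of -0.22, -0.24 and -0.089 in the chromium-restricted group, against -0.26, -0.21 and -0.11 in the control group. Its immunoprecipitated signal was 4305, 4326 and 4659 in the chromium-restricted group, against 4415, 4342 and 4934 for control arrays. The highest mean ratio among fully measured probes was at 133055364 to 133055408 in region 22, with 2.07, 2.14 and 2.07 in the chromium-restricted group, against 2.13, 2.16 and 1.88 for control arrays. Its level was near 2 in both groups, with control array 3 lowest. By contrast, the probe from 132817007 in region 14, also among the 20 brightest, had 0.085, 0.064 and 1.34 in the chromium-restricted group, against 0.35, 0.87 and 0.95 for control arrays. The groups overlapped there, with chromium-restricted array 3 highest of all. Among the 20 probes with the brightest immunoprecipitated signal, 18 had a mean above 0, 10 were lower and 10 higher in the chromium-restricted group, and the size of the group difference had a median of 0.049 and a maximum of 0.23. Their SD within groups had a median of 0.21, against 0.24 for all 46 fully measured probes.

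At the low end, the immunoprecipitated signal was at background. All 10 probes with the lowest mean ratios, and all 8 with a mean below -2, had no array on which this signal was well above background. For such probes the ratio gives at most an upper limit, and only where the input signal was itself well above background. An example with such input is the probe from 132930957 to 132931016 in region 19. Its input signal was 239, 253 and 179 in the chromium-restricted group, against 277, 150 and 184 for control arrays, well above background on all 6 arrays. Its immunoprecipitated signal was 40.5, 37.4 and 32.7 in the chromium-restricted group, against 45.6, 38.1 and 41.8 for control arrays, well above background on none. Input was well above background on all arrays with no such immunoprecipitated signal at 3 probes of the cluster. Some probes with neither channel above background on any array repeated nearly the same signals. From 132804969, input was 27.2, 18.8 and 30.3 in the chromium-restricted group, against 16.4, 29.5 and 23.3 for control arrays. From 132817285, it was 26.9, 18.6 and 30.8, against 15.7, 29.2 and 23.3. Both probes had a group difference of -0.13. Such values are not read as methylation.

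The comparison between diets was read against the array as a whole. Of the 22 regions, 0 passed the adjusted threshold of limma (0% of all regions did), and 0 of 165 probes did. Unadjusted, limma put 2 of the 22 regions under 0.05, against 197 of 21987 (0.896%), and 7 of the probes, against 2259 of 174278 (1.3%). Region 14, through which the window was chosen, is 1 of those 2 regions and its probes are among the 165, so nothing is read from either count. The 95% confidence interval around the difference was wider here than on the array as a whole, with a median half-width of 0.28 against 0.22 for all regions. Likewise the SD within groups had a median of 0.18, against 0.12. In the olfactory receptor window the half-width and the SD had medians of 0.26 and 0.16, and in the natural killer receptor window 0.24 and 0.15. Differences of 12 of the 22 regions were under 0.1 in size. The median size was 0.080, against 0.048 for all regions, 0.081 in the olfactory receptor window and 0.044 in the natural killer receptor window. A size of at least 0.3 was reached by 2 of the 22 regions (9.09%), against 0.223% of all regions. Region 14 is 1 of these 2, so nothing is read from that count.

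The groups did not overlap in 2 regions (9.09%), against 4.44% of all regions. Both were lower in the chromium-restricted group, against 1.95% of all regions in that direction, and 0 were higher, against 2.49%. Since 1 of the 2 brought the window to attention, nothing is read from that count. Among probes, 9 had groups without overlap, against 4.27% of all probes. Of these 9, 7 were lower (4.24% of the cluster, against 2.14%) and 2 higher (1.21%, against 2.13%). The lower ones include the probes of region 14 from 132818083 and 132818288, so nothing is read from these counts either. At 6 of these 9 probes the immunoprecipitated signal was not well above background on any array. The difference was below 0 in 15 of 22 regions (68.2%), against 47.5% of all regions, 54.5% in the natural killer receptor window and 63.3% in the olfactory receptor window. Its median was -0.030 in the cluster and 0.0040 over all regions. These shares were not tested, since the window had been chosen with results of the same contrast known. At 54 of the 165 probes neither channel was well above background on any array, against 9765 of 174638 on the whole array. Their part in these shares was not tested. Over the 6 regions left with at least 3 fully measured probes the window's difference was 0.039. The difference had the same sign in all 3 scans in 5 regions, 4 lower (6.34% of all regions did so) and 1 higher (7.76%). Region 14, through which the window was chosen, is 1 of the 4, so nothing is read from that count.

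Region 14, which is 1542 bp long and ends at 132818345, is the region that drew attention to the cluster. Its mean log2 ratio was -0.49, -0.49 and -0.62 in the chromium-restricted group, against 0.0038, -0.38 and -0.035 in the control group. The chromium-restricted values lay below all control values, the nearest being control array 2. The difference was -0.39, the 9th largest in size of all regions, and -0.49, -0.11 and -0.58 within scans 1, 2 and 3. Of its 7 probes, 6 had a lower mean in the chromium-restricted group. The immunoprecipitated signal was well above background on all arrays at 2 of the 7 probes and on none at the other 5. The mean difference was -0.052 over the pair of probes with signal and -0.53 over the 5 without, a split made after the values had been seen. At its last probe, from 132818288, the immunoprecipitated signal was 25.3, 24.9 and 22.5 in the chromium-restricted group, against 25.2, 22.6 and 22.5 for control arrays, at background on all arrays. The input signal there was 97.5, 122 and 153 in the chromium-restricted group, against 87.6, 84.0 and 46.0 for control arrays, so the lower ratios of that probe lay with higher input readings. That input signal was itself well above background on 2 of the 6 arrays.

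Region 6, from 132661612 to 132662963, was the other region without overlap. Its mean log2 ratio was -0.39, -0.36 and -0.58 in the chromium-restricted group, against -0.20, -0.22 and -0.20 in the control group. The control values lay close together and all chromium-restricted values were below them. The difference was -0.23, with -0.19, -0.13 and -0.38 within the 3 scans. Over its 2 probes with immunoprecipitated signal well above background on all arrays the difference was 0.00080, and over the other 5 it was -0.33. The largest part came from the probe starting at 132662020, at -1.14, where neither channel was well above background on any array.

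Region 20, from 132986620 to 132988232, which holds the brightest probe of the cluster, had -0.19, -0.14 and -0.41 in the chromium-restricted group, against -0.26, 0.059 and 0.15 for control arrays. The groups overlapped through control array 1. The difference was -0.23, which turned to 0.027 where the median of its 8 probes replaced their mean. Over its 3 probes with immunoprecipitated signal well above background on all arrays the difference was -0.27, and over the other 5 it was -0.21. Within scans the difference of region 20 was 0.068, -0.20 and -0.56.

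Among the 5 largest differences, regions 11 and 2 had the higher values in the chromium-restricted group. Region 11, from 132751619 to 132753195, had -0.15, -0.42 and -0.031 in the chromium-restricted group, against -0.60, -0.74 and -0.17 for control arrays. The groups overlapped, and the difference was 0.30. It rested on 1 probe. At the probe starting at 132751619 the input signal was 38.0, 35.1 and 31.9 in the chromium-restricted group, against 40.9, 728 and 42.1 for control arrays. The log2 ratio of that spot on control array 2 was -4.34, against -0.38 to 0.83 on the other 5 arrays, and the scanner software had not flagged it. Without that probe the difference of the region was -0.027. Region 2, from 132544664 to 132546232, had 0.17, -0.48 and -0.49 in the chromium-restricted group, against -0.51, -0.60 and -0.19 for control arrays. Its difference of 0.17 was -0.048 without chromium-restricted array 1, which alone lay above 0.

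**Figure D3:**
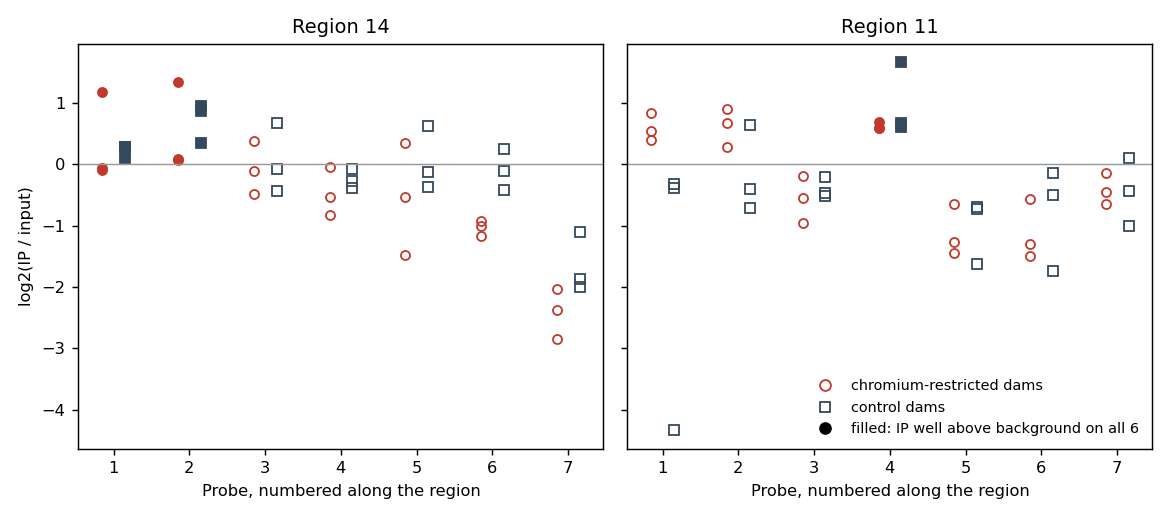
Log2 ratio of immunoprecipitated over input signal (y axis) at the 7 probes each of regions 14 and 11 (x axis), with offspring of chromium-restricted dams left of offspring of control dams and 1 point per array. Filled points mark probes whose immunoprecipitated signal was well above background on all 6 arrays, which are 2 of 7 in region 14 and 1 of 7 in region 11. The control point at -4.34 is the spot on control array 2.

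The other 17 regions had differences between -0.17 and 0.057, 12 below and 5 above 0, each with overlapping groups. Among them were the 6 regions named above for their level, with differences of -0.13 (region 21), -0.0043 (region 4), -0.091 (region 7), -0.12 (regions 5 and 12) and -0.17 (region 19).

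The size of a probe's difference went with its signal. At the 46 fully measured probes the size had a median of 0.078, equal to that of the 117566 such probes on the whole array. It exceeded 0.5 at 1 of the 46, against 558 of the 117566. Neither channel was marked as well above background on all 6 arrays at 93 probes. Their median size was 0.20, against 0.21 for the 31522 such probes of the array. Of the 93, 17 exceeded 0.5, against 4241 of the 31522. The cluster has 56.4% of its probes in this class, against 18.1% of all probes. The part of dim signal in the regions' differences was not tested beyond the splits given above. The 1 fully measured probe past 0.5 starts at 133006690 in region 21. Its log2 ratio was -1.06, -0.39 and -0.80 in the chromium-restricted group, against 0.10, -0.37 and 0.041 in the control group. These groups did not overlap, but chromium-restricted array 2 and control array 2 were nearly equal, and the probe did not pass the adjusted threshold.

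**Figure D4:**
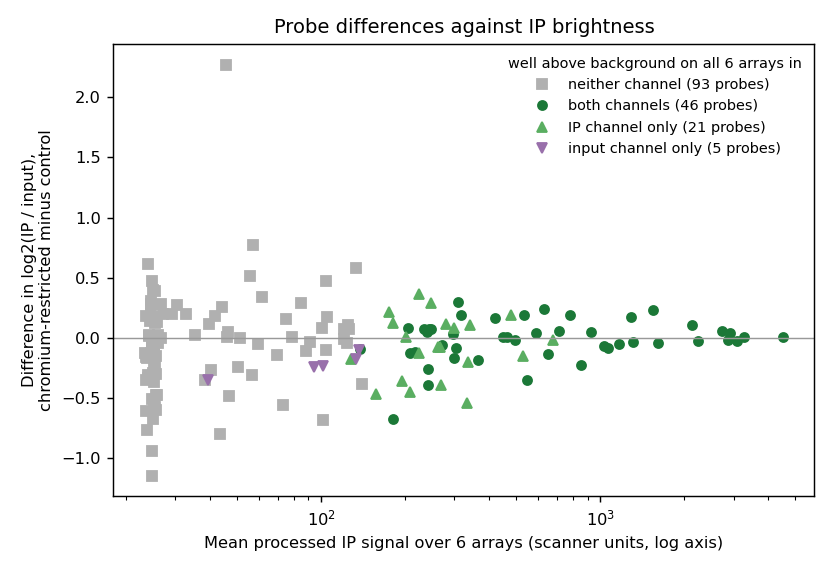
Difference in log2 ratio, chromium-restricted minus control (y axis), against the mean processed immunoprecipitated (IP) signal over 6 arrays (x axis, log scale) for the 165 probes, marked by the channels that were well above background on all 6 arrays. Probes above 1000 units lie within 0.23 of 0, and the largest differences are among the 93 probes with neither channel so marked.

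Correlations between arrays were lower across this cluster's regions than across all regions. Pearson correlations between arrays across the 22 regions ran from 0.695 (chromium-restricted array 3 and control array 1) to 0.920 (chromium-restricted array 2 and control array 1), against 0.909 to 0.985 across all regions. Regions share the same arrays, so these values are a description. The levels of the 22 regions ran from -0.77 to 0.59, against -4.98 to 1.88 for all regions. The part of this narrower span in the lower correlations was not tested. The highest correlation joined arrays of different groups, those with the brightest inputs of each group.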

How the data were processed

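DNA of 6 liver samples (3 chromium-restricted, 3 control) had been read on two-colour Agilent tiling arrays placed on mm9. The scans were read with Feature Extraction 11.0.1.1, and the deposited processed signals are intensity values with local background subtracted and a linear dye factor per channel applied, without lowess, per the file headers. Spots carry the software's flags for signal well above background, uneven pixels and population outliers. The authors' deposited table holds normalized log ratios, taken as log2 since the base is not stated. It ran red over green when set against the scanner values, with column medians of 0.031 to 0.040, and its centring is not stated.

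From the processed signals, log2 of red (immunoprecipitated) over green (input) was centred on the median of each array's genomic probes, with neither loess nor quantile normalization. Probes flagged in either channel on any array were left out (360 of 174638, 0 in the window). Region means and probes were fitted over the whole array with limma 3.58.1 in R 4.3.3 (lmFit, eBayes, group as the only term) and Benjamini-Hochberg adjustment at 0.05, and the fit was tested on simulated data. Precision is limited by the number of arrays. Other software was data.table (version 1.17.8), Python (3.11.15) and, for the plots, matplotlib (3.10.9).

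The window, the regions, the comparison windows and the tests were chosen with earlier results of these data known. Named regions were those whose groups did not overlap, the 5 largest differences, the 3 highest and 3 lowest levels and the region that drew attention to the window; the named probes were chosen after their values were seen. Lists of other taste signalling genes could not be used, since no probe is paired with a gene. The planned normexp on mean spot signals was run on median spot signals (offset 50), the ones in the files. Same-numbered arrays share a scan. Their deviations from the group means correlated at 0.15, -0.59 and 0.20 over regions.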

Additional observations from a re-analysis of the deposited data

How the results depend on the processing

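The count of regions past limma's adjusted threshold was 0 under all 16 alternatives run and that of probes 0 under all 13. Regions under 0.05 without adjustment numbered 197, and 37 after normexp, 94 over fully measured probes, 112 with the replicate block and 848 with the input brightness of each array as a covariate, which was chosen after seeing the data. Leaving out 1 array gave 119 to 558 regions. For probes these counts were 2259, and 427 after normexp, 863 over fully measured probes, 1336 in the authors' deposited table, 6805 with that covariate and 1746 to 4248 without 1 array. The window's mean level over fully measured probes (6 regions) was 0.33, with 0 set at the median of such probes. The window's mean level of -0.082 was -0.17 with normexp and -0.73 in the authors' deposited table, and -0.10 to -0.062 without 1 array. Its difference of -0.053 was 0.039 over fully measured probes, -0.017 with the median over probes, -0.035 with normexp, -0.053 with the replicate block (equal to a block by scan) and -0.091 to -0.016 without 1 array. It was -0.091 without chromium-restricted array 1 or control array 1, -0.016 on leaving out chromium-restricted array 2, and control array 3 left out gave -0.017. The replicate block changed no call. Region 2 (0.17) had -0.025 with normexp, 0.076 with the median over probes, 0.0095 in the authors' deposited table, -0.027 over probes with immunoprecipitated signal well above background and -0.048 to 0.29 without 1 array. Region 6 (-0.23) had 0.00080 over such probes, -0.14 with the median over probes, -0.059 with normexp, -0.061 in the authors' deposited table and -0.28 to -0.16 without 1 array. Region 11 (0.30) had -0.36 over its 1 such probe, -0.027 without its first probe, 0.017 with the median over probes, 0.046 with normexp, 0.11 in the authors' deposited table, 0.18 without control array 2 and 0.47 without control array 3. Region 20 (-0.23) had -0.27 over its 3 probes with immunoprecipitated signal well above background and 0.027 with the median over probes. Its difference was -0.076 with normexp, -0.087 in the authors' deposited table, -0.15 without chromium-restricted array 3 or control array 3 and -0.35 without control array 1. Region 14 (-0.39) stayed below 0 under every alternative run, between -0.52 and -0.052, with -0.11 under normexp, -0.18 with the median over probes or in the authors' deposited table, and it had too few fully measured probes for a value. Why these values moved was not tested. The selections by signal of the immunoprecipitated channel and the removal of a probe were chosen after seeing the data. Signal over background limits the cluster: 46 of its 165 probes were fully measured.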
